A study of Homo sapiens with 6 samples.

Results

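The nuclear-encoded genes of the mitochondrial respiratory chain, of its ATP synthase and of their assembly factors were compared between HCT-8 cells treated with 5-fluorouracil (5-FU) and untreated HCT-8 cells. Members were chosen by name: every protein-coding gene whose symbol starts with NDUF, SDHA to SDHD, UQCR, ATP5 or COX followed by a digit, together with CYC1 and CYCS. These were 114 of the 58735 genes in the count table, and 107 of them had enough reads to be tested. By role, 78 members encode subunits, 22 encode assembly factors, and the other 14 are cytochrome c (CYCS), the ATP synthase inhibitor ATP5IF1, the supercomplex factor COX7A2L, 9 alternative isoforms or retrocopies and 2 readthrough genes.

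HCT-8 is a human colorectal adenocarcinoma line, grown here as a monolayer in RPMI-1640 with 10% fetal bovine serum. RNA was sequenced from 3 samples of cells given 5-FU, a pyrimidine analogue that inhibits thymidylate synthase and enters RNA and DNA, and from 3 samples of cells given no treatment; all 6 are of the same line. Cells received the drug at the concentration that inhibits by 10% (IC10); its molar value and the time of exposure are not given here. Whether the samples of a group came from separate cultures is not stated in the labels, and the p-values therefore rest on a spread between samples that may be technical.

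Complex I oxidises NADH and complex II oxidises succinate, and both pass electrons through ubiquinone to complex III, then through cytochrome c to complex IV, which reduces oxygen. Complexes I, III and IV pump protons, and ATP synthase (complex V) makes ATP as the protons flow back. Complex II is encoded wholly in the nucleus, whereas complexes I, III, IV and V also hold subunits made from mitochondrial DNA, so that products of both genomes meet in an assembly that dedicated factors guide.

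Gene counts summed to between 18459939 and 20613228 in the 5-FU libraries and to between 21659252 and 23495607 in the control libraries. Genes of the mitochondrial genome took 25.5% to 28.5% of all counts in the 5-FU libraries, against 4.66% to 4.88% in the control libraries. Of 8 colon epithelial markers 3 fell, 1 rose and 4 had no call. Among them EPCAM (241 ± 28.4 CPM in 5-FU cells, against 465 ± 58.2 CPM in control cells) and CDX2 (56.6 ± 4.4 CPM in 5-FU cells, against 124.7 ± 18.5 CPM in control cells) were present in every library (SD, n = 3 each). Both fell, as did KRT8, and CDH1, KRT18, KRT19 and VIL1 had no call. CEACAM5 rose from near silence, at 24, 12 and 14 counts in the 5-FU libraries, against 1, 3 and 1 in the control libraries (log2 fold change 3.34, SE 0.58, edgeR adjusted p = 0.000285). The 4 haematopoietic markers and 2 hepatocyte markers had too few reads to be tested. The 5 fibroblast markers summed to 31.9 to 61.6 CPM in the 5-FU libraries and 13.2 to 18.9 CPM in the control libraries, nearly all from COL1A1, with DCN and LUM at 0 in every library. The 3 endothelial markers summed to 3.5 to 5.5 CPM in the 5-FU libraries and 2.17 to 3.12 CPM in the control libraries. Of these VWF rose (log2 fold change 0.97, SE 0.28, edgeR adjusted p = 0.00934), PECAM1 had no call and CDH5 had too few reads to be tested. The part of the fibroblast and endothelial markers in the results was not tested. In whole-culture RNA, fewer cells of a kind and less RNA per cell cannot be told apart. CPM here are counts scaled by each library's total and its trimmed-mean factor, and FPKM are the authors' values, scaled by gene length as well. That length is the one deposited for the gene and can exceed its main transcript, as for NDUFB2 with 4447 against 1101 bases. Ranks of genes per length below are ranks by these FPKM, and another choice of length can change them.

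Most of the respiratory chain genes were lower after 5-FU. Of the 107 tested members, 86 fell, 6 rose and 15 did not pass the test, which was edgeR's quasi-likelihood test with Benjamini-Hochberg adjustment over all genes and a threshold of 0.05. Without control replicate 3, 87 members fell and 2 rose. Changes were widespread in these libraries: 70.2% of the 19771 genes tested were called, 33.9% lower and 36.3% higher, so the lower calls among members are to be read against 33.9%. Among the 14187 protein-coding genes tested 43.6% fell and 27.8% rose. The median log2 fold change of the members, 5-FU over control, was -1.08, with a range of -2.08 to 1.85, beside 0.09 over all genes tested. A fall of at least 2-fold was called for 58 members, against 16.2% of all genes, and a rise of at least 2-fold for 1 member, against 25.3% of all genes.

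The groups of libraries did not overlap in 97 members, 89 of them with the 5-FU libraries below the control libraries, where 74.3% of all genes tested did not overlap, 35.9% with the 5-FU libraries below and 38.4% with them above. Relative to the control mean, the median log2 difference over the members was -1.21, -1.06 and -0.95 in 5-FU replicates 1, 2 and 3, and between -0.05 and 0.03 in the control libraries. All 3 treated libraries were therefore low, replicate 1 lowest. With that library left out 85 members fell, with the mitochondrially encoded genes left out of the fit 87 fell, and with upper-quartile scaling, which shifted the median of all genes to 0.45, 75 fell and 11 rose. Relative to the median of all genes the members' median was -1.18 under trimmed-mean scaling, upper-quartile scaling and plain library totals alike. These scalings change only a factor per library, which moves all genes nearly alike. The likeness of these values was thus fixed in advance and is no check of the result.

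**Figure D1:**
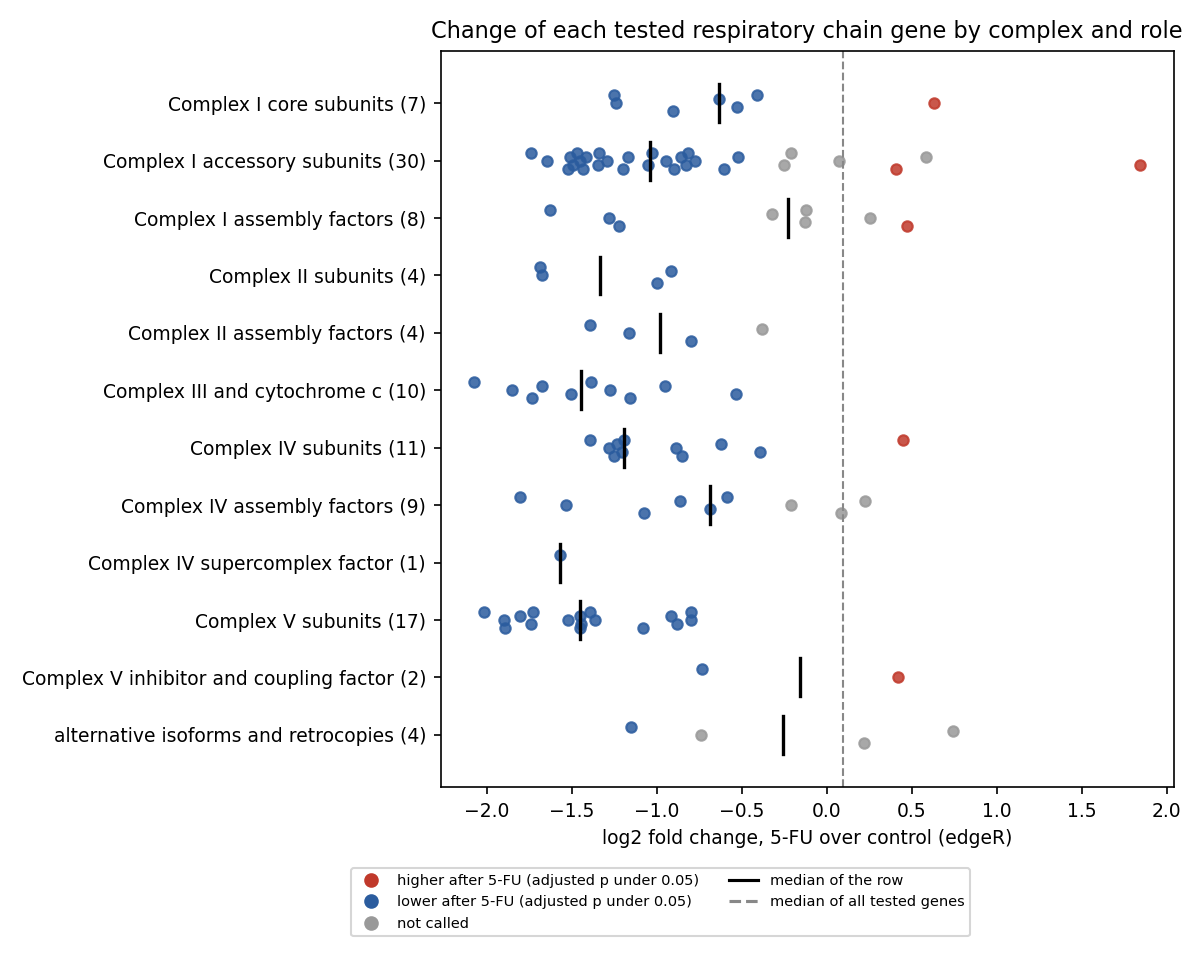
Each point is a tested gene, placed by its log2 fold change (5-FU over control, horizontal axis) in the row of its complex and role, with the number of genes in brackets, and coloured by the edgeR call. Black bars mark row medians and the dashed line the median of all tested genes (0.09); every subunit of complexes II, III and V lies left of 0, and the row medians of subunits lie left of those of the assembly factors of the same complex.

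Promoters of the members were searched for short sequence words. RefSeq promoter windows (GRCh38.p14, 250 bases before to 50 bases after the start) were found for 91 of the 114 members, and 3 words of 7 letters were searched on both strands: CCGGAAG, bound by ETS family factors such as GABPA; GCATGCG, the core of the site of nuclear respiratory factor 1 (NRF1); and AAGATGG, the core of the YY1 site. CCGGAAG stood in 28.6% of member promoters and in 10.7% of all 27305 promoters, GCATGCG in 20.9% and 4.13%, and AAGATGG in 18.7% and 6.06%. In the 15843 promoters of protein-coding genes the shares were 14.2%, 5.14% and 6.4%. Median GC content was 62.0% in member promoters, 62.7% in those of protein-coding genes and 58.3% in all. At least 1 of the words was found in 50.5% of member promoters, against 23.0% of protein-coding promoters.

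CCGGAAG was found in 20 of 64 subunit promoters and in 6 of 19 promoters of assembly factors, and AAGATGG was found in 16 of 64 subunit promoters and in 1 of 19 promoters of assembly factors. AAGATGG contains ATG, the letters of a start codon, and the window runs 50 bases past the start of the gene. The SDHB match lies in those 50 bases, as do others. How many AAGATGG matches are start codons was not tested, nor was their part in the difference between the classes. All 3 words together occurred in 3 member promoters, those of SDHB, ATP5PF and ATP5ME. Of the promoters of members that fell, 40 of 71 held at least 1 word; of those of members that rose, 2 of 4; and of those of members with no call, 4 of 12. GCATGCG nearly reads as its own reverse complement, so that 1 site can match on both strands, and matches of different words overlapped in 1 member promoter. A match is a description of the letters and does not show binding, and the absence of a match says only that these letters are not in this window.

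The promoters of 4 members are printed 5′ to 3′ on the strand of the gene, with matches on either strand in capitals. SDHB (chr1:17053983-17054282, minus strand) and ATP5PF (chr21:25735005-25735304, minus strand) hold all 3 words and both genes fell; UQCRFS1 (chr19:29213102-29213401, minus strand) fell furthest of all members and holds none of them; COX6A1 (chr12:120437863-120438162, plus strand) rose and holds CCGGAAG and GCATGCG, the first of them read on the other strand as CTTCCGG.
SDHB: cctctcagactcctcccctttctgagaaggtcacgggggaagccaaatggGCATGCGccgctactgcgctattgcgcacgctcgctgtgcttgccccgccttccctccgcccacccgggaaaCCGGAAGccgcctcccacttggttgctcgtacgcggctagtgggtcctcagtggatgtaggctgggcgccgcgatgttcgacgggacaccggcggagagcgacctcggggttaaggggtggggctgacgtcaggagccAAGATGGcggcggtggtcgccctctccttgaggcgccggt
ATP5PF: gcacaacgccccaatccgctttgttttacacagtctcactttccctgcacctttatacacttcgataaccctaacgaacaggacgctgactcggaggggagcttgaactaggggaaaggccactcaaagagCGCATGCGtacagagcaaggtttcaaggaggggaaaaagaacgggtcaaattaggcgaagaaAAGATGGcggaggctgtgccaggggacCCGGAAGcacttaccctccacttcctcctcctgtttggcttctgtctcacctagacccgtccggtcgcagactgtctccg
UQCRFS1: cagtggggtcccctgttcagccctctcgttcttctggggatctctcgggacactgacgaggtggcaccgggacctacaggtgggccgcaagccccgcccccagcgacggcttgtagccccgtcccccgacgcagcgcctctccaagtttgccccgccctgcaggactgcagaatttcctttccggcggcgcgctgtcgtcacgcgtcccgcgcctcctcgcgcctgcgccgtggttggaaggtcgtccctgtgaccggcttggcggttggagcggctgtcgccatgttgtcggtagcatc
COX6A1: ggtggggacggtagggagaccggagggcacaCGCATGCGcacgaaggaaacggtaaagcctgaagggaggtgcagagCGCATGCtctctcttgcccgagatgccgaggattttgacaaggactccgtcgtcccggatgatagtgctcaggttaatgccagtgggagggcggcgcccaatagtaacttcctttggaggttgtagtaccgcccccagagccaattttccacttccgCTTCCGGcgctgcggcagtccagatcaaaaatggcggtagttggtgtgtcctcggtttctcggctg

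**Figure D2:**
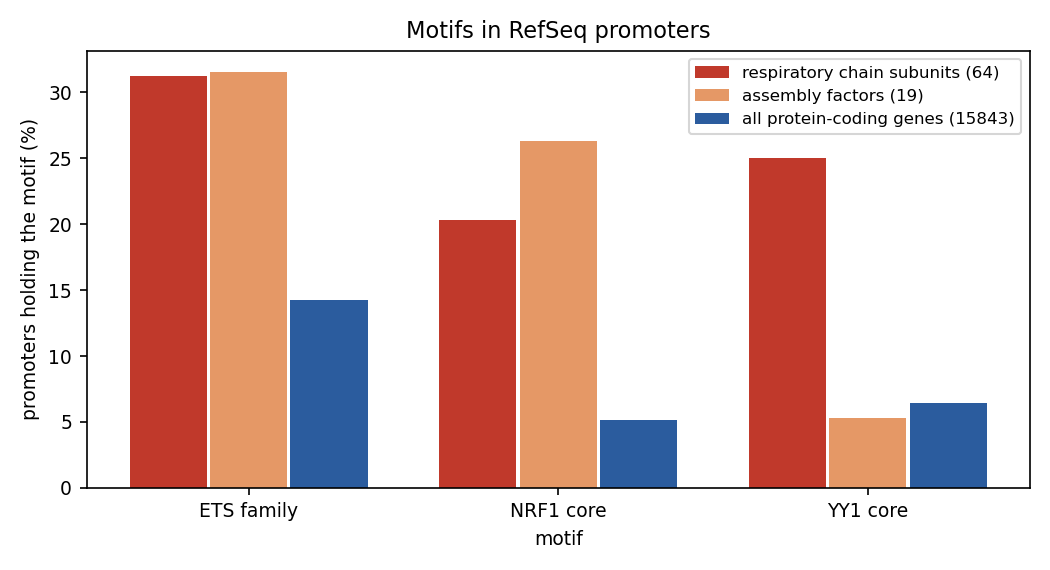
Bars give the percentage of RefSeq promoters, starting at 0, that hold each 7-letter word on either strand, for subunit genes, for assembly factor genes and for all protein-coding genes, with the number of promoters in brackets. The ETS and NRF1 words have higher bars in both member groups than in all protein-coding genes, and the YY1 word stands at 25% in subunits, 5.26% in assembly factors and 6.4% in all protein-coding genes. The YY1 word contains ATG, the letters of a start codon, and the windows reach 50 bases past the start.

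The nuclear core subunits of complex I, which carry its flavin and iron-sulfur clusters, were lower in 6 of 7 cases after 5-FU and higher in 1, with a median log2 fold change of -0.63. NDUFS1, the large iron-sulfur subunit of the NADH-oxidising arm (chr2:206114817-206159603, minus strand, GRCh38), had 62.3, 70.3 and 70.2 CPM in the 5-FU libraries, against 157, 164 and 158 CPM in the control libraries. All 3 treated libraries lay below all 3 controls, with little spread in either group (log2 fold change -1.24, SE 0.11, edgeR adjusted p = 4.02e-06). NDUFS3, a core subunit of the ubiquinone-binding arm, had 22.5, 29.6 and 28 CPM in the 5-FU libraries, against 56.6, 60.6 and 73.7 CPM in the control libraries (log2 fold change -1.25, SE 0.15, edgeR adjusted p = 1.94e-05). Again the groups did not overlap. NDUFV1, which binds NADH and the flavin, had the highest FPKM of the core subunits, at 17.7 ± 2.71 FPKM in 5-FU cells, against 36.4 ± 3.3 FPKM in control cells (SD, n = 3 each). It fell by 0.90 on the log2 scale. That rank rests on the deposited lengths. NDUFS8 had 64.3 CPM in 5-FU cells and 92.9 CPM in control cells on a main transcript of 791 bases. NDUFV1 had 94.9 CPM in 5-FU cells and 177 CPM in control cells on 1596 bases.

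NDUFV2, another iron-sulfur core subunit, went the other way and rose, with 6.98, 9.18 and 8.95 CPM in the 5-FU libraries, against 6.19, 5.33 and 4.69 CPM in the control libraries (log2 fold change 0.63, SE 0.19, edgeR adjusted p = 0.0123). The lowest treated library lay only a little above the highest control, and the gene was read thinly, at 137 to 189 counts in the 5-FU libraries and 95 to 138 counts in the control libraries. Exons of another annotated gene cover 82.9% of its main transcript, and reads on its annotated pseudogenes amounted to 17.9% of its own; their part in the result was not tested. The call was lost in 6 of 19 alternatives, among them DESeq2 and leaving out 5-FU replicate 2, 5-FU replicate 3 or control replicate 3, with adjusted p between 0.000883 and 0.108 over the alternatives (edgeR, DESeq2 or limma).

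Accessory subunits surround the core of complex I, and of 30 tested 24 fell, 2 rose and 4 did not pass, with a median log2 fold change of -1.04. NDUFAB1, the mitochondrial acyl carrier protein that also serves fatty acid and lipoic acid synthesis (chr16:23581002-23596356, minus strand), had 29.3, 33.7 and 39.5 CPM in the 5-FU libraries, against 129, 100.01 and 113 CPM in the control libraries (log2 fold change -1.74, SE 0.14, edgeR adjusted p = 2.66e-06). All treated libraries lay far below the lowest control, and the mean was 3.34-fold higher in control cells. NDUFS6, a zinc-binding subunit needed late in assembly, had 20.9, 29.2 and 29.3 CPM in the 5-FU libraries, against 79.7, 78.6 and 90.5 CPM in the control libraries (log2 fold change -1.65, SE 0.15, edgeR adjusted p = 3.92e-06). NDUFS5, on the intermembrane-space face, had the highest mean FPKM of the accessory subunits, with 70.8 ± 16.8 FPKM in 5-FU cells, against 223 ± 22 FPKM in control cells (SD, n = 3 each). It fell by 1.51 on the log2 scale.

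The 2 accessory subunits that rose were NDUFA13 and NDUFA11. NDUFA13, also known as GRIM-19 and described in cell death signalling besides complex I (chr19:19515736-19529054, plus strand), had 16.8, 11.3 and 9.56 CPM in the 5-FU libraries, against 3.23, 3.93 and 3.31 CPM in the control libraries. Treated replicate 1 was the highest, all treated libraries stood well above the controls, and this was the largest rise of any member (log2 fold change 1.85, SE 0.23, edgeR adjusted p = 3.32e-05). The call held in all 19 alternatives, none of which changed how reads were assigned to genes. Exons of another annotated gene cover 44.1% of the main transcript of NDUFA13, and their part was not tested. Its control level was low beside the subunits' median of 94.4 CPM in control cells. NDUFA11, a membrane-arm subunit, had 28.3, 33.7 and 32 CPM in the 5-FU libraries, against 21.8, 27.5 and 21.7 CPM in the control libraries, so that the lowest treated library lay just above the highest control (log2 fold change 0.41, SE 0.14, edgeR adjusted p = 0.0215). That call was lost in 9 of 19 alternatives, including the omission of 5-FU replicate 2 or 3 or of control replicate 1 or 3, with adjusted p between 0.000692 and 0.201. The 4 without a call, named after their values were seen, were NDUFB8 (-0.25), NDUFB9 (-0.21), NDUFV3 (0.07) and NDUFA7 (0.58).

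Complex I assembly factors, which bind intermediates and leave the finished enzyme, were divided: 3 of 8 fell, 1 rose and 4 did not pass, with a median log2 fold change of -0.23. The share that fell, 37.5%, was near the 33.9% of all genes tested and below the 43.6% of protein-coding genes. NDUFAF3 and NDUFAF4 act together on an early intermediate of the ubiquinone-binding arm, and both fell. NDUFAF3 had 12.3, 18.6 and 26.2 CPM in the 5-FU libraries, against 53.8, 56.6 and 66.3 CPM in the control libraries (log2 fold change -1.63, SE 0.22, edgeR adjusted p = 5.73e-05), with the treated libraries widely spread but all far below the lowest control. NDUFAF4 had 8.71, 8.71 and 9.47 CPM in the 5-FU libraries, against 20.8, 19 and 25.7 CPM in the control libraries (log2 fold change -1.28, SE 0.16, edgeR adjusted p = 2.73e-05), and its treated libraries lay close together. The third that fell was NDUFAF2, at -1.22.

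NDUFAF6, a factor needed for complex I to form, rose, with 25.4, 19.9 and 21.5 CPM in the 5-FU libraries, against 17.9, 13.2 and 17.1 CPM in the control libraries (log2 fold change 0.47, SE 0.16, edgeR adjusted p = 0.0199). The nearest libraries of the groups lay close together, and the call was lost in 7 of 19 alternatives, among them DESeq2 and the omission of 5-FU replicate 1 or control replicate 2, with adjusted p between 0.000583 and 0.191. NDUFAF8, a partner of the methyltransferase-like factor NDUFAF5, was the most abundant of these factors per length, with 28.7 ± 6.46 FPKM in 5-FU cells, against 34.5 ± 9.19 FPKM in control cells (SD, n = 3 each). Its libraries overlapped, at 32.4, 47.7 and 45.5 CPM in the 5-FU libraries, against 48.7, 32.9 and 55.3 CPM in the control libraries, and no difference was called (log2 fold change -0.12, SE 0.20, edgeR adjusted p = 0.589). The remaining 3 without a call were NDUFAF1 (-0.32), NDUFAF7 (-0.13) and NDUFAF5 (0.26), named after their values were seen.

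All 4 subunits of complex II, succinate dehydrogenase, which also works in the citric acid cycle, fell, between -1.69 and -0.92 on the log2 scale. SDHB, the iron-sulfur subunit whose promoter is printed above (chr1:17018722-17054170, minus strand), had 23.7, 30.8 and 36 CPM in the 5-FU libraries, against 96.7, 95.3 and 96.9 CPM in the control libraries. The control libraries lay close together, and the highest treated library was far below them (log2 fold change -1.67, SE 0.15, edgeR adjusted p = 3.68e-06). SDHD, a membrane anchor that helps bind ubiquinone, had 18, 20.8 and 26.9 CPM in the 5-FU libraries, against 72.7, 65.9 and 73.3 CPM in the control libraries (log2 fold change -1.69, SE 0.15, edgeR adjusted p = 3.94e-06). SDHA, the flavoprotein, had 106 ± 7.55 CPM in 5-FU cells, against 213 ± 12.3 CPM in control cells, and SDHC, the other anchor, fell by 0.92 on the log2 scale, both called lower; reads on annotated SDHA pseudogenes amounted to 29.4% of those on SDHA itself, and their part in its value was not tested. Of the 4 assembly factors SDHAF1, SDHAF3 and SDHAF4 fell, at -1.39, -1.16 and -0.80, and SDHAF2, which attaches the flavin to SDHA, had -0.38 with overlapping libraries.

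Every tested gene of complex III fell, 9 of 9, with a median log2 fold change of -1.39. UQCRFS1, the Rieske iron-sulfur protein and the last catalytic subunit to be inserted (chr19:29205321-29213541, minus strand), fell furthest of all 107 tested members. It had 24.4, 32 and 35.9 CPM in the 5-FU libraries, against 139.8, 110.2 and 139.7 CPM in the control libraries, so that its mean was 4.22-fold higher in control cells (log2 fold change -2.08, SE 0.16, edgeR adjusted p = 1.92e-06). The highest treated library was far below the lowest control, replicate 2. CYC1, cytochrome c1, which hands electrons to cytochrome c, had 70.7, 89 and 82 CPM in the 5-FU libraries, against 259, 234 and 280.5 CPM in the control libraries (log2 fold change -1.68, SE 0.13, edgeR adjusted p = 2.17e-06). UQCRH, the hinge protein at the cytochrome c docking site, was the most abundant per length, with 57.3 ± 16.3 FPKM in 5-FU cells, against 179 ± 11.8 FPKM in control cells (SD, n = 3 each).

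Cytochrome c itself, CYCS, which carries electrons from complex III to complex IV and triggers caspase activation when released, fell as well, with 61.7, 98.5 and 108 CPM in the 5-FU libraries, against 321, 219.7 and 353 CPM in the control libraries (log2 fold change -1.74, SE 0.22, edgeR adjusted p = 3.7e-05). Control replicate 2 stood below the other controls, but still well above the highest treated library. Of the 2 large core proteins, UQCRC1 had a log2 fold change of -1.85 (SE 0.15) and UQCRC2 of -0.95 (SE 0.11), and the treated libraries of UQCRC2 were all at 111 CPM. The smallest fall was that of UQCR11, at -0.53.

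**Figure D3:**
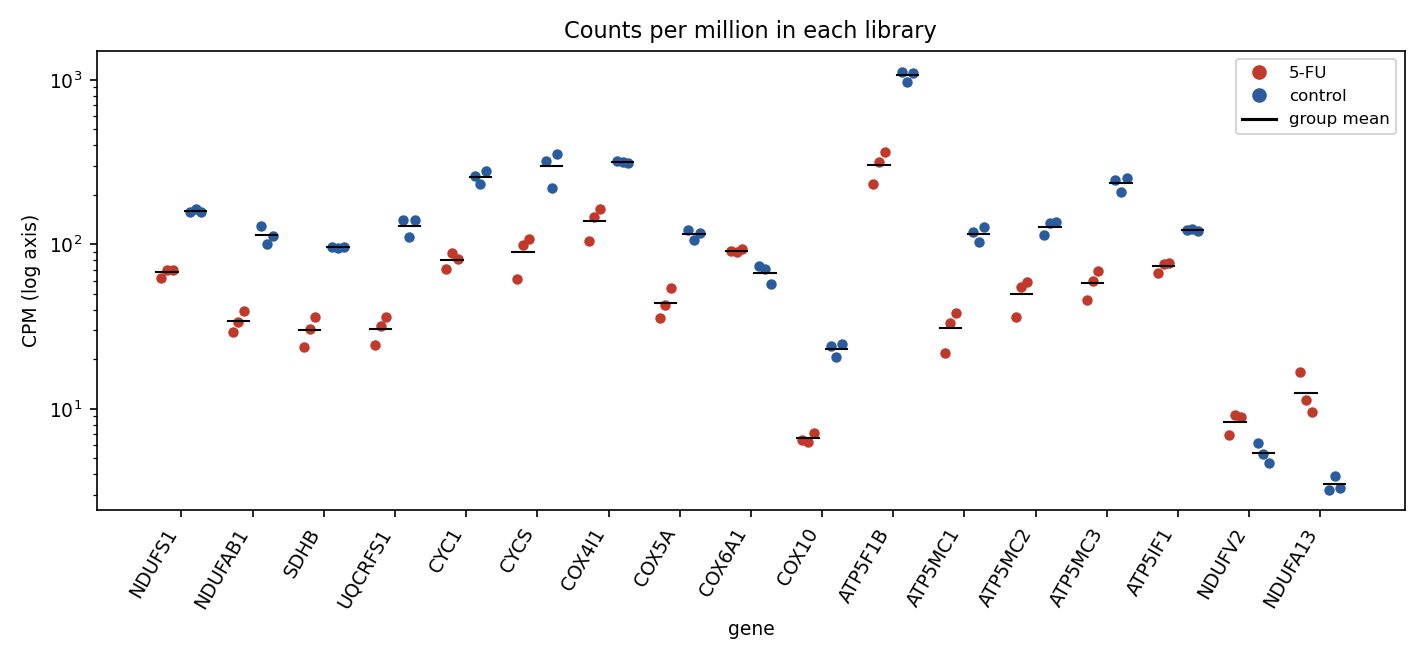
CPM (log axis) of 17 members in each library, with the 3 5-FU libraries left of the 3 control libraries for every gene and a bar at each group mean. Most genes have all treated points below all control points; COX6A1, NDUFV2 and NDUFA13 have them above.

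Of the 11 complex IV subunits, among which NDUFA4 is counted because its protein associates with this complex, 10 fell and 1 rose, with a median log2 fold change of -1.20. COX5A, a subunit on the matrix side (chr15:74919791-74938168, minus strand), had 35.6, 42.5 and 54.2 CPM in the 5-FU libraries, against 123, 107 and 117 CPM in the control libraries (log2 fold change -1.39, SE 0.15, edgeR adjusted p = 1.29e-05). COX7B, a small membrane subunit encoded on chromosome X, had 32.5, 33.1 and 43.3 CPM in the 5-FU libraries, against 95.6, 79 and 82.3 CPM in the control libraries (log2 fold change -1.24, SE 0.14, edgeR adjusted p = 1.69e-05). In both genes the treated libraries stayed below every control. COX8A had the highest FPKM of the complex IV subunits, with 95.9 ± 29.3 FPKM in 5-FU cells, against 252 ± 32 FPKM in control cells (SD, n = 3 each). It fell by 1.25 on the log2 scale, its treated replicate 1 lowest. That rank rests on the deposited lengths. COX4I1 had 139 CPM in 5-FU cells and 318 CPM in control cells on a main transcript of 708 bases. COX8A had 51.5 CPM in 5-FU cells and 123 CPM in control cells on 507 bases. The smallest fall was that of COX5B, at -0.40.

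COX6A1, a small membrane subunit (chr12:120438090-120440742, plus strand), rose, with 91.2, 89.8 and 93.8 CPM in the 5-FU libraries, against 73.7, 70.4 and 57.5 CPM in the control libraries. The treated libraries lay close together and above all controls (log2 fold change 0.45, SE 0.12, edgeR adjusted p = 0.00619). The call was lost in 7 of 19 alternatives, with adjusted p between 0.000156 and 0.589; without control replicate 3 it was lost, and with a trend on gene length and GC content removed from each library the log2 fold change was 0.07.

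Of 9 complex IV assembly factors 6 fell and 3 did not pass, with a median log2 fold change of -0.69. COX10, which makes heme O, the first step to the heme A of this complex (chr17:14069496-14208677, plus strand), fell most, with 6.47, 6.31 and 7.15 CPM in the 5-FU libraries, against 24.1, 20.8 and 24.9 CPM in the control libraries (log2 fold change -1.81, SE 0.15, edgeR adjusted p = 2.58e-06). COX11, which delivers copper to the catalytic subunit, had 35.1, 34.5 and 36.4 CPM in the 5-FU libraries, against 76.1, 73.3 and 73.6 CPM in the control libraries (log2 fold change -1.07, SE 0.11, edgeR adjusted p = 6.89e-06). Libraries of each group lay close together in both genes. COX17, the chaperone that brings copper into the intermembrane space, fell by 1.53 on the log2 scale. COX14, which binds newly made MT-CO1, had the highest mean FPKM of these factors, with 17.1 ± 3.19 FPKM in 5-FU cells, against 28.3 ± 3.51 FPKM in control cells (SD, n = 3 each). It fell by 0.59. COX15, which completes heme A, had -0.21, COX19 had 0.08 and COX20 had 0.22, all with overlapping libraries and no call.

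All 17 tested subunits of ATP synthase fell, the median log2 fold change being -1.45, over a range of -2.01 to -0.80. ATP5F1B, the catalytic beta subunit (chr12:56638175-56646068, minus strand), was the most abundant of these genes per length, with 124 ± 30.2 FPKM in 5-FU cells, against 476 ± 44.8 FPKM in control cells (SD, n = 3 each). Its counts were 234, 316 and 364 CPM in the 5-FU libraries, against 1122, 969.9 and 1104 CPM in the control libraries (log2 fold change -1.81, SE 0.18, edgeR adjusted p = 6.39e-06), so even the highest treated library lay far below the lowest control. ATP5F1C, the gamma subunit that forms the central shaft, had 56, 59.9 and 67.7 CPM in the 5-FU libraries, against 188, 165 and 174 CPM in the control libraries (log2 fold change -1.52, SE 0.12, edgeR adjusted p = 2.24e-06). ATP5PF, a subunit of the stalk whose promoter is printed above, fell by 1.73 on the log2 scale.

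The rotating ring of ATP synthase is built of subunit c, for which 3 genes encode the same mature protein behind different import sequences. ATP5MC3 had 45.9, 59.8 and 69 CPM in the 5-FU libraries, against 245, 209 and 252 CPM in the control libraries (log2 fold change -2.01, SE 0.16, edgeR adjusted p = 2.15e-06). ATP5MC1 had 21.8, 33.4 and 38.3 CPM in the 5-FU libraries, against 118, 104 and 127 CPM in the control libraries (log2 fold change -1.90, SE 0.19, edgeR adjusted p = 6.1e-06), and ATP5MC2 had 36.3, 54.7 and 58.9 CPM in the 5-FU libraries, against 114, 134 and 137 CPM in the control libraries (log2 fold change -1.36, SE 0.17, edgeR adjusted p = 3.22e-05). All 3 genes fell with no overlap of the groups. Per length their levels were 11.2 ± 3.35 FPKM in 5-FU cells, against 46.2 ± 5.28 FPKM in control cells for ATP5MC1. For ATP5MC2 they were 11.8 ± 3.16 FPKM in 5-FU cells, against 33.4 ± 3.09 FPKM in control cells, and for ATP5MC3 8.09 ± 1.84 FPKM in 5-FU cells, against 36 ± 4.1 FPKM in control cells (SD, n = 3 each). By FPKM, ATP5MC1 and ATP5MC2 lay within 1 SD of each other in 5-FU cells, as did ATP5MC2 and ATP5MC3 in control cells, where ATP5MC1 was highest. This order rests on the deposited lengths.

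ATP5IF1, which binds ATP synthase and keeps it from hydrolysing ATP, fell, with 67, 75.7 and 77.5 CPM in the 5-FU libraries, against 122, 123 and 121 CPM in the control libraries (log2 fold change -0.73, SE 0.11, edgeR adjusted p = 0.000122). ATP5S, annotated as coupling factor B of the same enzyme, rose, with 34.8, 33.4 and 31.7 CPM in the 5-FU libraries, against 27.9, 25 and 21.9 CPM in the control libraries (log2 fold change 0.42, SE 0.13, edgeR adjusted p = 0.0125). In the counts by class ATP5S stands among the assembly factors. The groups did not overlap, and the call was lost in 6 of 19 alternatives, among them DESeq2 and the omission of control replicate 3, with adjusted p between 0.000318 and 0.177.

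Several subunits have a second gene used in other tissues, and these alternative isoforms were hardly read in HCT-8 cells. The usual isoform COX4I1 had 139 ± 30.6 CPM in 5-FU cells, against 318 ± 3.97 CPM in control cells, while COX4I2, a lung and hypoxia isoform, had no reads in 4 of 6 libraries and 4 counts in each of the other two. COX6A2 and COX7B2, isoforms of muscle and testis, had 1 count and 0 counts over all libraries, and COX8C had 5 to 14 counts in the 5-FU libraries and 2 to 5 counts in the control libraries. COX6B1 fell, at -1.28, whereas its testis isoform COX6B2 had 1.59 ± 0.21 CPM in 5-FU cells, against 0.951 ± 0.396 CPM in control cells and was not called (log2 fold change 0.74, SE 0.36, edgeR adjusted p = 0.0812).

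Among the COX7A genes, COX7A2 fell, with 90.7, 104 and 112 CPM in the 5-FU libraries, against 175, 152 and 146 CPM in the control libraries (log2 fold change -0.62, SE 0.13, edgeR adjusted p = 0.00102). COX7A2L, which joins complexes III and IV into supercomplexes, fell too, with 24.9, 30.4 and 40.6 CPM in the 5-FU libraries, against 92.7, 104 and 87.7 CPM in the control libraries (log2 fold change -1.57, SE 0.17, edgeR adjusted p = 1.11e-05). The muscle isoform COX7A1 had 10 to 17 counts in any library and no call (log2 fold change 0.22, SE 0.37, edgeR adjusted p = 0.606). NDUFA4 fell (-0.85), and its hypoxia-induced relative NDUFA4L2 was read at 15 to 25 counts in the 5-FU libraries and 16 to 60 counts in the control libraries, with overlapping groups (log2 fold change -0.74, SE 0.44, edgeR adjusted p = 0.15). UQCRHL, an intronless copy of UQCRH, fell by 1.15 on the log2 scale, beside 1.51 for UQCRH, and reads of such near-identical copies may be split between them.

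Subunits and assembly factors were also counted apart. Of the 78 subunits 70 fell, 4 rose and 4 had no call, with a median log2 fold change of -1.20. Of the 22 assembly factors 12 fell, 2 rose and 8 had no call, with a median of -0.64. The lower calls made up 89.7% of subunits and 54.5% of assembly factors, beside 33.9% of all genes tested and 43.6% of protein-coding genes. The assembly factors' median was -0.28 with upper-quartile scaling and -0.39 with a mean count of at least 50. Summed over genes, subunits had 3392, 4103 and 4565 CPM in the 5-FU libraries, against 9819, 9114 and 9622 CPM in the control libraries. Assembly factors had 384, 429 and 438 CPM in the 5-FU libraries, against 637, 589 and 659 CPM in the control libraries. The sum was thus 2.37-fold higher in control cells for subunits and 1.51-fold higher for assembly factors, with no overlap of libraries in either. Members are not replicates of a class, and the difference between the classes was not tested.

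The classes also differed in level. Median FPKM in control cells was 38.1 over subunits and 9.88 over assembly factors, and 45 subunits but 0 assembly factors stood in the quintile of tested genes with the highest mean count. In that quintile as a whole, 60.8% of 3954 genes fell and 17.5% rose, with a median log2 fold change of -0.54. Of the 48 members in it 46 fell and 1 rose, with a median of -1.27. Across the 107 members the log2 fold change was related to the log2 mean CPM with r = -0.54 and rho = -0.46; the points share the same 6 libraries, and the mean CPM holds the treated values too. With gene length r was 0.15 and with GC content 0.10. The part of level in the difference between the classes was not tested.

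The 6 members that rose were not alike in how they are annotated. The share of a gene's main transcript that lies in exons of another annotated gene was 44.1% for NDUFA13, 82.9% for NDUFV2, 67.0% for NDUFA11, 30.6% for COX6A1, 20.1% for ATP5S and under 10% for NDUFAF6. Of 70 tested members with under 10% overlap 61 fell, 1 rose and 8 had no call, with a median log2 fold change of -1.21. Of 31 with 10% to 50% overlap 24 fell and 3 rose, with a median of -1.05. Of 6 with 50% or more 1 fell, ATP5PO, 2 rose and 3 had no call, with a median of 0.31. Median control levels in these classes were 91.0, 58.9 and 11.7 CPM. How the authors assigned reads of shared exons is not given in the sources, and the part of overlap in these values was not tested.

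AC011448.1, whose exons overlap the main transcript of NDUFA13 on the same strand, was itself higher, at 1.95 CPM in 5-FU cells and 0.861 CPM in control cells (log2 fold change 1.17, SE 0.34, edgeR adjusted p = 0.00872). YJEFN3 also overlaps exons of NDUFA13 on that strand, outside the main transcript. AC024592.3, which overlaps NDUFA11, had no reads in either group, and AL021546.1, which overlaps COX6A1, had 0.034 CPM in 5-FU cells and 0.031 CPM in control cells. AP005263.1, which overlaps NDUFV2, had 0.017 CPM in 5-FU cells and 0 CPM in control cells. Because the rule for shared reads is not given, low values of a partner do not show how many reads the overlap touched. COX20 shares 83.5% of its main transcript with HNRNPU on the opposite strand, a gene at 348 CPM in 5-FU cells and 901 CPM in control cells.

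**Figure D4:**
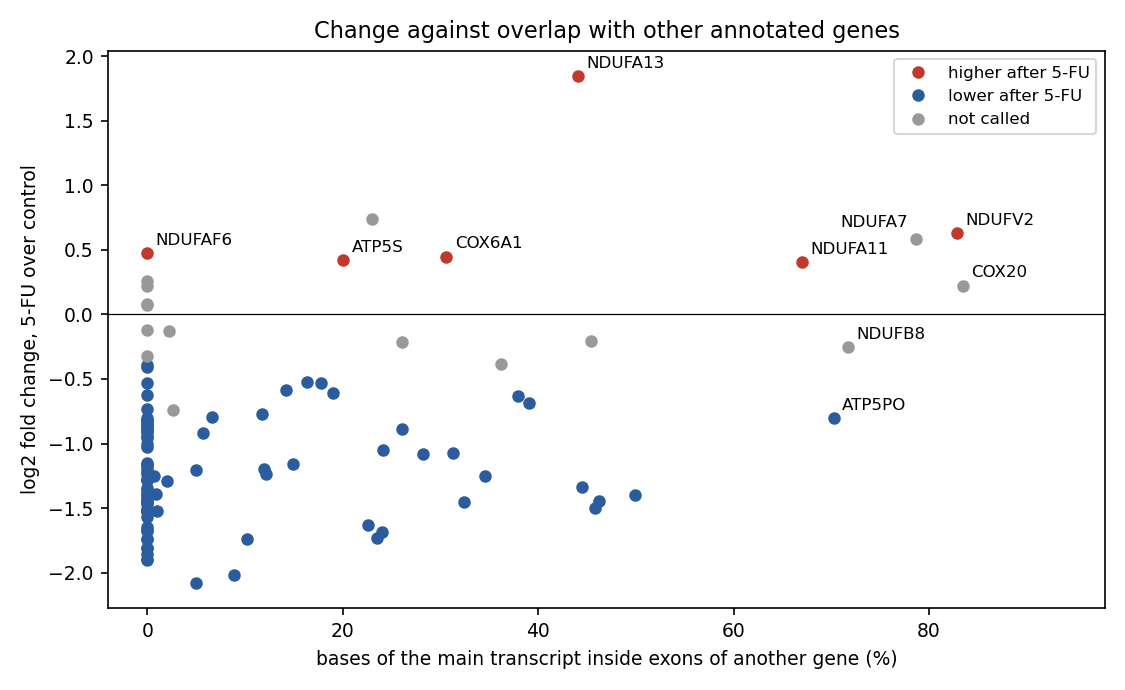
Each point is a tested member, placed by the percentage of the main transcript's bases that lie in exons of another gene (horizontal axis) and by its log2 fold change, 5-FU over control (vertical axis), and coloured by call. Members that rose or that overlap by 50% or more are named; the falls are spread from 0% to 50% overlap, with 1 more at 70.3% (ATP5PO), and 2 of the 6 rises lie above 50%.

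Subunits made from the mitochondrial genome moved in the opposite direction to most of their nuclear partners. All 13 mitochondrially encoded messenger RNAs rose, with a median log2 fold change of 2.26. Among all genes tested 36.3% rose, and 25.3% rose by at least 2-fold. For complex I, 37 nuclear subunit genes summed to 1129, 1310 and 1397 CPM in the 5-FU libraries, against 2511, 2421 and 2534 CPM in the control libraries. Its 7 mitochondrial genes summed to 80209 ± 2907 CPM in 5-FU cells and 16163 ± 622 CPM in control cells (SD, n = 3 each). For complex III, 9 nuclear genes summed to 554 ± 84.7 CPM in 5-FU cells and 1498 ± 62.5 CPM in control cells, while MT-CYB alone had 13197 ± 725 CPM in 5-FU cells and 3005 ± 198 CPM in control cells.

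For complex IV the nuclear genes summed to 865 ± 136 CPM in 5-FU cells and 1636 ± 63.7 CPM in control cells, and the 3 mitochondrial genes to 124474 ± 7755 CPM in 5-FU cells and 24491 ± 975 CPM in control cells. The nuclear genes of complex V summed to 1086 ± 216 CPM in 5-FU cells and 3369 ± 206 CPM in control cells, 3.10-fold higher in control cells, which was the largest nuclear ratio of the 5 complexes. Its 2 mitochondrial genes summed to 13003 ± 628 CPM in 5-FU cells and 4204 ± 188 CPM in control cells. Complex II, which has no mitochondrial gene, summed to 236 ± 20.6 CPM in 5-FU cells and 526 ± 15.2 CPM in control cells.

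The ratio of mitochondrial to nuclear CPM was 63.2 ± 7.61 in 5-FU cells and 6.49 ± 0.103 in control cells for complex I. It was 24.1 ± 2.85 in 5-FU cells and 2.01 ± 0.210 in control cells for complex III. For complex IV it was 147 ± 32.2 in 5-FU cells and 15 ± 0.316 in control cells, and for complex V 12.2 ± 1.98 in 5-FU cells and 1.25 ± 0.135 in control cells (SD, n = 3 each). In all 4 complexes every treated library had a higher ratio than every control library, and the mean ratio was 9.74 to 12.0 times higher in 5-FU cells. Both sums are taken over the same library total, which cancels in the ratio but not in the separate sums. Mitochondrial genes held a larger share of that total in 5-FU cells.

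All nuclear members together took 0.480 ± 0.0637% of counts in 5-FU cells and 1.03 ± 0.0155% in control cells. Counted outside the mitochondrial genome, the share was 0.654 ± 0.0760% in 5-FU cells and 1.08 ± 0.0170% in control cells, so a difference remained when mitochondrial reads were set aside (SD, n = 3 each).

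**Figure D5:**
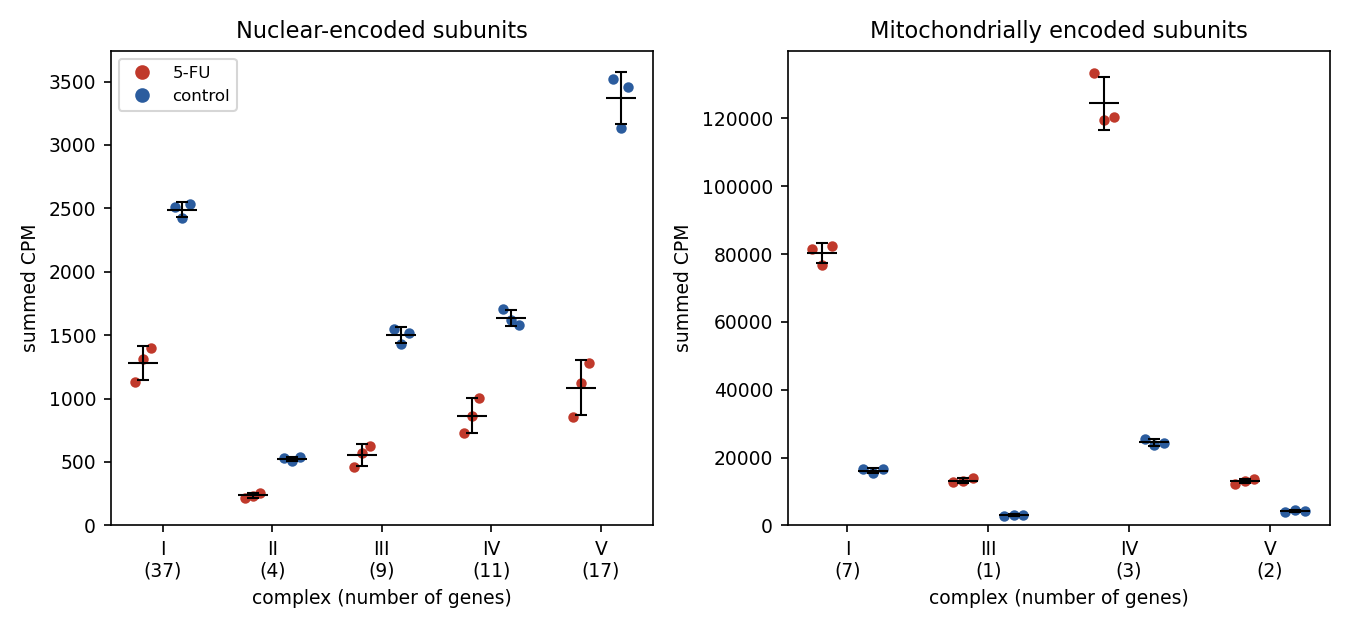
Summed CPM of the nuclear subunit genes (left) and of the mitochondrially encoded subunit genes (right) of each complex, 5-FU points left of control points, with bars at the mean ± SD of 3 libraries and gene numbers in brackets; the vertical axes differ. For every complex the nuclear sums are lower in 5-FU cells than in control cells, and for the 4 complexes with mitochondrial genes the mitochondrial sums are higher in 5-FU cells.

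Genes of the same pathway outside the name rule were counted next, and those named were chosen after their values were seen. Of 42 tested assembly factors with other kinds of names, 33 fell, 1 rose and 8 had no call, with a median log2 fold change of -0.73. Among all genes tested 33.9% fell, and among protein-coding genes 43.6%. ECSIT, an assembly factor of the complex I membrane arm, fell furthest, with 6.06, 7.56 and 9.0 CPM in the 5-FU libraries, against 35.5, 33 and 41.2 CPM in the control libraries (log2 fold change -2.27, SE 0.17, edgeR adjusted p = 1.55e-06). COA6, which helps to bring copper to complex IV, had -1.88, and ATPAF1, which binds the beta subunit of ATP synthase, had -1.35. PET100, a complex IV assembly factor, was the one that rose, with 5.2, 4.64 and 4.26 CPM in the 5-FU libraries, against 1.08, 1.27 and 2.37 CPM in the control libraries (log2 fold change 1.59, SE 0.30, edgeR adjusted p = 0.000612).

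Of 16 tested regulators of mitochondrial genes 11 fell, 1 rose and 4 had no call, with a median log2 fold change of -0.92. This count stands beside falls in 33.9% of all genes tested, 43.6% of protein-coding genes and 60.8% of the quintile with the highest mean count. TFAM, which packages and transcribes mitochondrial DNA, had 25.2, 28.8 and 27.4 CPM in the 5-FU libraries, against 79.8, 67.8 and 82.4 CPM in the control libraries (log2 fold change -1.50, SE 0.12, edgeR adjusted p = 2.58e-06). The factors of the searched promoter words were not uniform: GABPA had a log2 fold change of -0.76, its partner GABPB1 -1.35 and YY1 -1.07, all called lower, whereas NRF1 had 19.5, 14.3 and 13.3 CPM in the 5-FU libraries, against 18.8, 18.3 and 23.2 CPM in the control libraries, with overlapping libraries and no call (log2 fold change -0.36, SE 0.17, edgeR adjusted p = 0.0844). MYC, which activates many genes of growth and of mitochondria, had 52.5, 78.9 and 61.4 CPM in the 5-FU libraries, against 207, 204 and 189 CPM in the control libraries (log2 fold change -1.64, SE 0.15, edgeR adjusted p = 4.44e-06). PPARGC1A, the coactivator PGC-1alpha, rose at a very low level, at 31, 22 and 54 counts in the 5-FU libraries, against 4, 8 and 1 counts in the control libraries (log2 fold change 3.11, SE 0.53, edgeR adjusted p = 0.00028). ESRRG had no reads.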

How the data were processed

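RNA was extracted with TRIzol and sequenced from libraries of the NEBNext Ultra RNA kit, per the labels' protocols. The submitters' processing notes name the build GRCh38 and, as tools, featureCounts 1.5.0-p3, HISAT2 2.0.5 and DESeq2 1.16.1. They give neither a strand setting nor a rule for reads shared by several genes. The authors deposited whole-number counts per gene (58735 genes, identifiers and positions matching GENCODE release 29) and FPKM. Each deposited FPKM value equals the count divided by gene length and by a constant per library, which was 1.07 to 1.16 times the count total in 5-FU libraries and 0.892 to 0.986 times in control libraries, so the FPKM carry a further scaling.

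Counts of all genes were tested with edgeR 4.0.16 in R 4.3.3: filterByExpr (a minimum count of 10 and total of 15), TMM scaling, group as the single term, the quasi-likelihood F-test and Benjamini-Hochberg adjustment over 19771 genes, with calls at 0.05. Chi-square per gene between libraries of the same group was 10.2 to 26.5, beyond counting noise. Fold changes are 5-FU over control; the SE is the coefficient divided by the square root of F. Alternatives used DESeq2 1.42.0, limma 3.58.1 (voom, and limma-trend on log2(FPKM + 1) and log2(FPKM + 0.1), which understates changes of low genes; FPKM of at least 1 in 3 samples, or no filter), other scalings and filters, the replicate number as a block, and leaving out each library. Added after seeing the data was the restriction to members with under 10% overlap of the main transcript.

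Members and lists were chosen with earlier results of these data known. The text names, in each group of a complex, the 2 falling members of smallest p, up to 3 rising ones and the one of highest FPKM, plus isoform sets and ATP5IF1; other genes named were chosen after their values were seen. Exons of other genes overlap 61 members, and 51 have named pseudogenes. Of 43 outside assembly factors 42 were found by name, and the name not found was DMAC2L.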

Additional observations from a re-analysis of the deposited data

How the results depend on the processing

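Across 19 alternatives fixed in advance and 1 added, 222 of 240 recomputed summary values stayed within their limits. Members called lower ranged from 61 (under 10% overlap, 70 tested) to 91 of 112 (no low-count filter), and assembly factors called lower from 8 to 15. The limit on a count was a fixed fold of the main value, wide enough to pass all of these. For members and subunits called lower, its upper end lay above the number tested and could not be crossed. The limit on a median was the SD between 5-FU libraries, 0.13 for members, 0.26 for subunits and 0.18 for assembly factors. The tally is therefore a weak check. Of 770 values of 41 named members, 725 kept direction and call, 38 lost the call, 3 gained one and 4 changed sign. Those 4 are NDUFAF8, never called, at 0.24 with upper-quartile scaling, 0.13 with a mean count of at least 50, 0.050 without 5-FU replicate 1 and 0.0016 without control replicate 3 (-0.35 to 0.050 over the omissions). Lost calls concern NDUFA11 (9), COX6A1 (7), NDUFAF6 (7), NDUFV2 (6), ATP5S (6), COX14 (2) and COX7A2 (1).

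Members called higher (6) numbered 11 with upper-quartile scaling, 1 with no low-count filter, 1 with DESeq2, 2 on log2(FPKM + 1) and 2 on log2(FPKM + 0.1) with the FPKM filter, 1 on log2(FPKM + 1) with no filter, 1 with under 10% overlap, and 2 to 6 with 1 library left out. The members' median log2 fold change was -0.73 with upper-quartile scaling, -0.91 with a mean count of at least 50, -1.27 on log2(FPKM + 0.1), -1.21 with under 10% overlap and -1.22 to -1.01 with 1 library left out. The subunits' median was -0.85 with upper-quartile scaling. The assembly factors' median was -0.28 with upper-quartile scaling, -0.39 with a mean count of at least 50 and -0.83 with under 10% overlap. Under 10% overlap left 9 subunits of complex V, all lower, because fewer genes enter; the cause of the other differences was not tested.

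With the replicate number as a block, 86 members fell and 6 rose, as without it. Deviations from the group mean correlated at -0.07, -0.20 and 0.06 between libraries with the same number, and at -0.12 to 0.17 between libraries with different numbers. With 3 libraries centred in each group, these values cannot show whether same-number libraries share a culture or a day. Genes near the filter limit depth: 4 tested members had a mean count under 50. Intervals and SDs cover these 6 libraries only.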
